A study of Mus musculus with 9 samples.

Results

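The NKT17 signature genes are a set of 8 genes known from interleukin 17 producing invariant natural killer T (iNKT) cells: *Il23r*, *Il1r1*, *Ccr6*, *Sdc1*, *Il17re*, *Tmem176a*, *Tmem176b* and *Blk*. They were picked by symbol, as known genes of this subset, and all 8 were found among the 21883 genes of the deposited expression table. RNA was sequenced from iNKT cells sorted by flow cytometry from the mouse thymus, in 3 groups of 3 libraries. The groups were wild type (WT) cells of stage 2, WT cells of stage 3, and *Med23*-deficient cells of stage 2. The study asked how the transcriptome changes over the last step of thymic maturation, and how the loss of *Med23*, a subunit of the Mediator complex that links enhancers to RNA polymerase II, alters it.

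All mice were of the C57BL/6 strain, and the labels name no treatment. The WT mice were 6 weeks old, whereas the labels give no age for the *Med23*-deficient mice. In the deficient mice, floxed *Med23* alleles are cut by Cre under the *Cd4* promoter, so the deletion acts in every T lineage cell from the CD4+ CD8+ double-positive thymocyte onwards and not in iNKT cells alone. Stage 2 cells were gated as CD44 high and NK1.1 low, and stage 3 cells as CD44 high and NK1.1 high. *Klrb1c*, which encodes NK1.1, is therefore a gate gene, and its level is no finding. The labels do not say whether the libraries of a group came from separate animals or from pools, so the p-values given here measure only the spread between these libraries.

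iNKT cells carry an invariant T cell receptor alpha chain and recognise glycolipids presented by CD1d. In the thymus they take on effector programs that resemble those of helper T cells. NKT1 cells use T-bet and make interferon gamma, NKT2 cells use GATA3 with a high level of PLZF and make interleukin 4, and NKT17 cells make interleukin 17. NKT17 cells are NK1.1 low, so the stage 2 gate holds them together with NKT2 cells. The study also found NKT1 cells within that gate. NKT17 cells respond to interleukin 23 and interleukin 1.

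Values are FPKM, fragment numbers per gene corrected for transcript length and for the reads mapped in the library, so levels can be compared between genes. The table holds no read counts and the depth of each library is unknown. Between 15584 and 17333 genes lay above 0 in a library. A value of exactly 0 in this table can be a failed estimate: *Raver1*, picked as an example after its values were seen, was listed at 0 in WT stage 2 replicate 2 and between 23.02 and 44.07 FPKM in the other libraries. For this reason a member is called listed at 0, not absent, and comparisons with a group at 0 throughout carry no fold.

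The labels were checked against marker genes. *Trav11*, the gene of the invariant V alpha segment, was at 86.93 to 104.26 FPKM in WT stage 2 and at 121.25 to 141.96 FPKM in the other 6 libraries. It was thus lower, without overlap, in the group in which the members were high, short of the fold threshold at log2 differences of 0.49 in WT stage 3 (limma adjusted p = 0.08) and 0.43 in the deficient libraries (limma adjusted p = 0.223). *Traj18*, its J segment, ranged from 50.0 to 124.91 FPKM and *Cd3e* from 110.13 to 137.75 FPKM. The iNKT marker *Slamf6* was at 9.75 to 14.66 FPKM in WT stage 2, 0.84 to 1.34 FPKM in WT stage 3 and 4.35 to 6.98 FPKM in the deficient libraries. *Med23* itself had 5.51, 5.15 and 6.74 FPKM in WT stage 2, 7.14, 4.44 and 6.12 FPKM in WT stage 3, and 4.80, 3.60 and 3.92 FPKM in the *Med23*-deficient libraries. The deficient libraries did not overlap with WT stage 2, and the log2 difference of -0.41 did not pass the tests (standard error 0.18, limma adjusted p = 0.552). The value of a gene pools all its exons, and the exons removed by the deletion are not known here.

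One library stood apart from its group. In WT stage 3 replicate 2 *Xist*, transcribed from the inactive X chromosome, was at 47.45 FPKM against at most 0.01 FPKM in the other libraries. The Y-linked genes *Ddx3y*, *Eif2s3y* and *Kdm5d* were listed at 0 in it and at 9.76 to 16.59, 5.32 to 10.72 and 2.94 to 4.67 FPKM in the others. Results without this library are given below for the members by both call rules. For other named genes they are given where a call by the fold and p thresholds was lost. The adjusted p-values of those genes are from fits with all libraries of a comparison, and were not followed without this one.

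*Il23r* (ENSMUSG00000049093, chromosome 6, 67422932 to 67491855, minus strand, mm10) encodes the chain of the interleukin 23 receptor that is particular to that cytokine. In WT stage 2 it was listed at 5.48, 3.13 and 6.36 FPKM (4.99 ± 1.67, SD, n = 3). In WT stage 3 the values were 1.60, 0.14 and 0 FPKM, and all 3 *Med23*-deficient libraries were listed at 0. Replicate 1 was the highest WT stage 3 library, and even this value lay below the lowest of WT stage 2. Fewer cells of a type and less RNA per cell cannot be told apart in these bulk libraries, for *Il23r* and for every other gene below.

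Differences between groups were tested with limma on log2(FPKM + 1), over all genes with a value above 0 in at least 1 of the 6 libraries compared. A member at 0 throughout a group is tested only through its values in the other, which fixes its direction, so its p is given but counts as no call. A difference on this scale understates the fold change of a gene at low FPKM. The first call rule, with the thresholds of the study, takes genes whose fold change reaches 2 and whose unadjusted p is 0.05 or below. The second asks for a p of at most 0.05 after Benjamini-Hochberg adjustment over all genes of the fit. *Il23r* was lower in WT stage 3 than in WT stage 2 by the first rule, with a log2 difference of -2.02 (standard error 0.45, limma adjusted p = 0.113). Against WT stage 2, the deficient libraries, at 0 throughout, had a limma adjusted p = 0.0511 with the direction fixed. The stage call depends on the tool: in an ordinary linear model of each gene with the library size as a covariate (Ballgown-style), the log2 difference was -2.18 and missed the p threshold.

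The 250 bases before the annotated start of *Il23r* are shown because *Il23r* and *Ccr6* were the members whose upstream window held AGGTCA, the core motif that the product of *Rora* and other nuclear receptors bind. Both windows are from RefSeq on build GRCm38.p6, are written 5′ to 3′ on the strand of the gene, and hold no annotated exon. Capitals mark AGGTCA on either strand (TGACCT where it lies on the opposite one), with the T before it where the longer form TAGGTCA is present. The *Il23r* window is chr6:67491856-67492105 on the minus strand and the *Ccr6* window chr17:8235793-8236042 on the plus strand.

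Il23r: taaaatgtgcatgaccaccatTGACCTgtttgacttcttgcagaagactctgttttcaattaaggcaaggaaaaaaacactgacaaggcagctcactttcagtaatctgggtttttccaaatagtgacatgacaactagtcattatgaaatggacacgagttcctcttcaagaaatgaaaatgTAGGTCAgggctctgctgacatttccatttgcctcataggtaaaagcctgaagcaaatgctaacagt

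Ccr6: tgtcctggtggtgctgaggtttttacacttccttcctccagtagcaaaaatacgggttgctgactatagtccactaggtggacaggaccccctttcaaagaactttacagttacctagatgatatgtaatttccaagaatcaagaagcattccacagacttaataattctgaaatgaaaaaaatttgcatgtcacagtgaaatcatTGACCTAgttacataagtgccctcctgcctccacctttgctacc

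In the *Il23r* window the motif lay 66 to 61 bases before the start on the strand of the gene, where it was the longer form, and 229 to 224 bases before it on the opposite strand. In the *Ccr6* window it lay 44 to 39 bases before the start on the opposite strand, again as the longer form. RefSeq windows were available for 7 of the 8 members (12 windows, as a gene can have several starts), and 2 of the 12 held AGGTCA. Of all 32851 windows of this length, 14.0% held AGGTCA and 2.23% TAGGTCA on either strand. A match describes the letters of a window and shows no binding.

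*Il1r1* (ENSMUSG00000026072, chromosome 1, 40225080 to 40317257, plus strand) encodes the signalling receptor for interleukin 1. It was listed at 2.23, 4.23 and 5.01 FPKM in WT stage 2 (3.82 ± 1.43, SD, n = 3), and at 0.03, 0.12 and 0 FPKM in WT stage 3. In the *Med23*-deficient libraries it was at 0.06, 0.10 and 0.03 FPKM, the one member above 0 in every deficient library. The lowest WT stage 2 value was well above all 6 others. The log2 difference was -2.15 in WT stage 3 (standard error 0.30, limma adjusted p = 0.0344). *Il1r1* stayed past the adjusted p there without WT stage 2 replicate 1, but not without any other library. Nor did it with a block for the replicate number or in the Ballgown-style model. In the deficient libraries the log2 difference was -2.13 (standard error 0.30, limma adjusted p = 0.0774), past the fold and p thresholds and not past the adjusted p. The gene shares 6480 bases with *Gm38070*, a gene model on the same strand with a mean of 0.133 FPKM.

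*Il17re* (ENSMUSG00000043088, chromosome 6, 113458484 to 113470758, plus strand) encodes a receptor for interleukin 17C. It was at 1.76, 0.62 and 1.31 FPKM in WT stage 2 (1.23 ± 0.574, SD, n = 3), while WT stage 3 had 0 in each of its 3 libraries. The *Med23*-deficient libraries had 0.12, 0 and 0 FPKM. The WT stage 2 libraries did not overlap with either of the other groups, though they differed among themselves by a ratio of highest to lowest of 2.84, the widest of the members above 0 in all of them. Against WT stage 3, at 0 throughout, the direction was fixed (limma adjusted p = 0.074). *Il17re* passed the first rule in the deficient libraries, at a log2 difference of -1.07 (standard error 0.22, limma adjusted p = 0.182). This call was lost without WT stage 2 replicate 1 (-0.90) and on the TPM scale (-0.84), as the fold threshold was no longer reached.

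*Ccr6* (ENSMUSG00000040899, chromosome 17, 8236043 to 8257127, plus strand), whose upstream window is shown above, encodes the receptor for the chemokine CCL20. Its values in WT stage 2 were 1.35, 0 and 0.03 FPKM. It was listed at 0 in all 6 libraries of the other groups. The level above 0 thus came from WT stage 2 replicate 1 nearly alone, and the groups overlapped. With limma neither call rule was met against WT stage 3 (limma adjusted p = 0.667) or against the deficient libraries (limma adjusted p = 0.731). The Ballgown-style model did reach both thresholds of the first rule in the stage comparison, where the direction was fixed.

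*Sdc1* (ENSMUSG00000020592, chromosome 12, 8771323 to 8793715, plus strand) encodes syndecan 1, a cell surface proteoglycan known as CD138, which marks NKT17 cells in the thymus and plasma cells elsewhere. It was at 5.94, 4.49 and 5.84 FPKM in WT stage 2 (5.42 ± 0.810, SD, n = 3). All WT stage 3 libraries were listed at 0, and the *Med23*-deficient libraries at 0, 0 and 0.03 FPKM. It varied least of the members among the WT stage 2 libraries, with a ratio of highest to lowest of 1.32. Against WT stage 3, at 0 throughout, the direction was fixed (limma adjusted p = 0.0115). In the deficient libraries *Sdc1* passed both call rules, at a log2 difference of -2.66 (standard error 0.23, limma adjusted p = 0.0304). The call by the adjusted p was lost whichever library was left out, with a block for the replicate number and in the Ballgown-style model.

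*Blk* (ENSMUSG00000014453, chromosome 14, 63372837 to 63417187, minus strand) encodes a kinase of the Src family that is best known from B cells. The WT stage 2 libraries had 6.76, 6.12 and 4.53 FPKM (5.80 ± 1.15, SD, n = 3). In WT stage 3 it was at 0.09, 0.22 and 0 FPKM, and it was listed at 0 in all *Med23*-deficient libraries. The lowest WT stage 2 value lay far above all 6 values of the other groups. *Blk* passed both rules in WT stage 3, at a log2 difference of -2.62 (standard error 0.25, limma adjusted p = 0.0146). The call by the adjusted p was lost without WT stage 2 replicate 3 and without any of the WT stage 3 libraries. It was also lost with a block for the replicate number and in the Ballgown-style model. Against the deficient libraries, at 0 throughout, the direction was fixed (limma adjusted p = 0.0304).

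*Tmem176b* (ENSMUSG00000029810, chromosome 6, 48833818 to 48841496, minus strand) and *Tmem176a* (ENSMUSG00000023367, chromosome 6, 48840919 to 48847071, plus strand) encode related membrane proteins. The genes lie head to head on opposite strands and share 578 bases. Whether the strand of the reads was used when the genes were quantified is not stated, so part of the level of one may belong to the other.

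*Tmem176b* was at 4.78, 3.37 and 2.02 FPKM in WT stage 2 (3.39 ± 1.38, SD, n = 3). It was listed at 0, 0.71 and 1.0 FPKM in WT stage 3, with 0, 0 and 0.94 FPKM in the deficient libraries. It was the most abundant member in WT stage 3 replicates 2 and 3 and in the deficient replicate 3, yet all of these values lay below the lowest of WT stage 2. The log2 difference was -1.49 in WT stage 3 (standard error 0.39, limma adjusted p = 0.156). It was -1.77 in the deficient libraries (standard error 0.40, limma adjusted p = 0.205). Both passed the fold and p thresholds and neither the adjusted p, and the second missed the p threshold in the Ballgown-style model, at -1.61.

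*Tmem176a* was lower, at 1.26, 1.05 and 0.69 FPKM in WT stage 2 (1.0 ± 0.288, SD, n = 3). Its values were 0.25, 0 and 0.09 FPKM in WT stage 3, and 0, 0 and 0.38 FPKM in the *Med23*-deficient libraries. Replicate 3 was the one deficient library above 0 for this gene and for *Tmem176b*. The log2 differences of -0.84 in WT stage 3 (standard error 0.17, limma adjusted p = 0.0822) and of -0.83 in the deficient libraries (standard error 0.20, limma adjusted p = 0.22) stayed short of a fold of 2 on the log2(FPKM + 1) scale. With a pseudocount of 0.1 in place of 1 they were -2.51 and -2.67 and passed, and so did the stage difference in the Ballgown-style model, at -1.12.

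**Figure D1:**
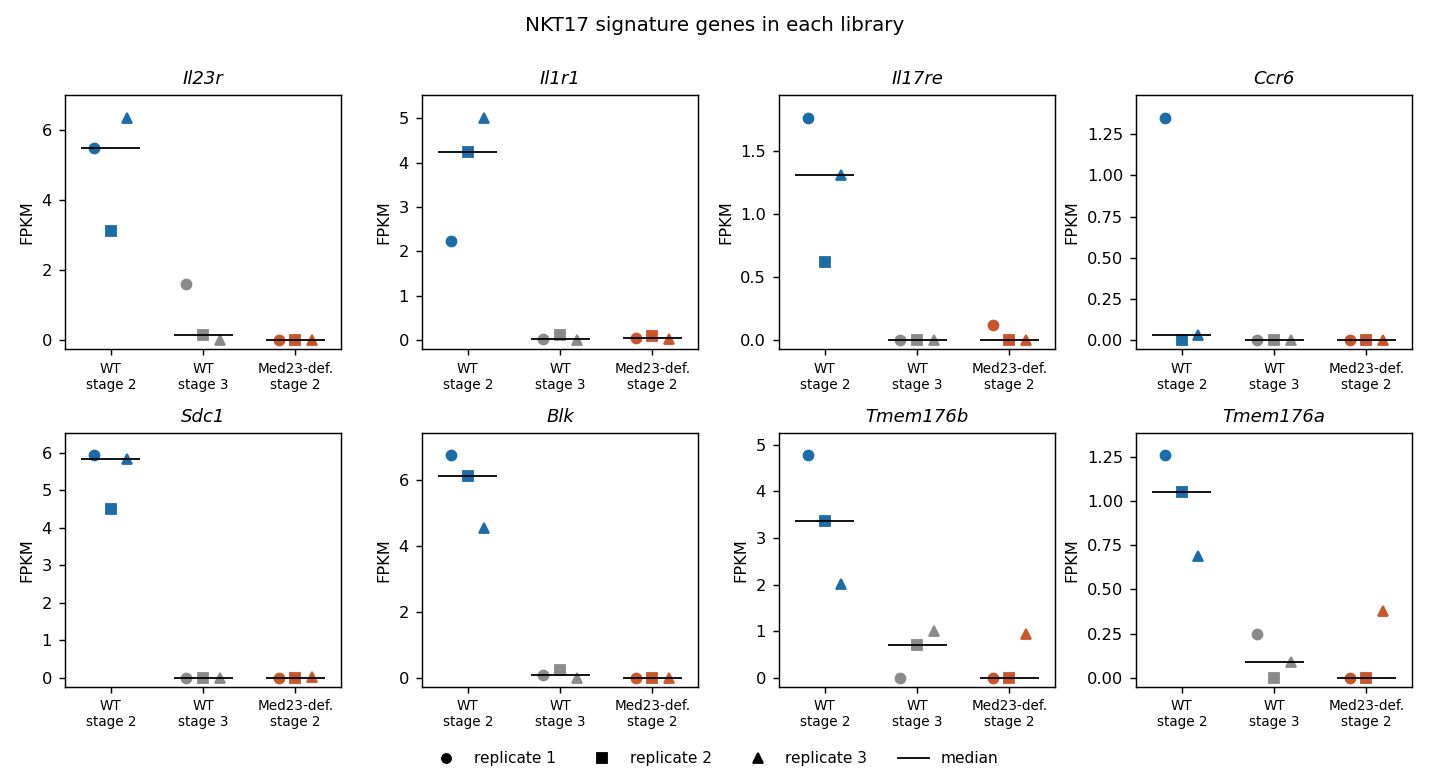
FPKM of the 8 NKT17 signature genes in each library (vertical axis), by group, with marker shape for the replicate and a black line at the median. In WT stage 2 the values of *Sdc1* lie between 4.49 and 5.94 FPKM and those of *Blk* between 4.53 and 6.76 FPKM, while the other groups lie at or near 0.

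Among the members, the order of mean FPKM in WT stage 2 was *Blk*, *Sdc1*, *Il23r*, *Il1r1*, *Tmem176b*, *Il17re*, *Tmem176a* and *Ccr6*. Neighbours in this order had overlapping ranges and did not differ beyond their spread, except for *Tmem176b* and *Il17re*, whose ranges were apart. The first 5 were at 2.02 FPKM or above in every WT stage 2 library, and the last 3 at 1.76 FPKM or below. Among the 18766 genes with a mean above 0 in WT stage 2, *Blk* stood at the percentile 68.8, *Il1r1* at 60.5 and *Ccr6* at 27.9. In the other groups no member exceeded 1.60 FPKM in any library. The members did not share an order over the WT stage 2 libraries: *Il23r*, *Sdc1*, *Il17re* and *Ccr6* were lowest in replicate 2, *Il1r1* in replicate 1, and *Blk*, *Tmem176a* and *Tmem176b* in replicate 3.

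The summed level of the 8 members was 29.56, 23.01 and 25.79 FPKM in WT stage 2. It was 1.97, 1.19 and 1.09 FPKM in WT stage 3, and 0.18, 0.10 and 1.38 FPKM in the *Med23*-deficient libraries. The number of members above 0 was 8, 7 and 8 in WT stage 2, 4, 4 and 2 in WT stage 3, and 2, 1 and 4 in the deficient libraries. Of the sum in the deficient replicate 3, 0.94 FPKM was *Tmem176b* and 0.38 FPKM *Tmem176a*.

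**Figure D2:**
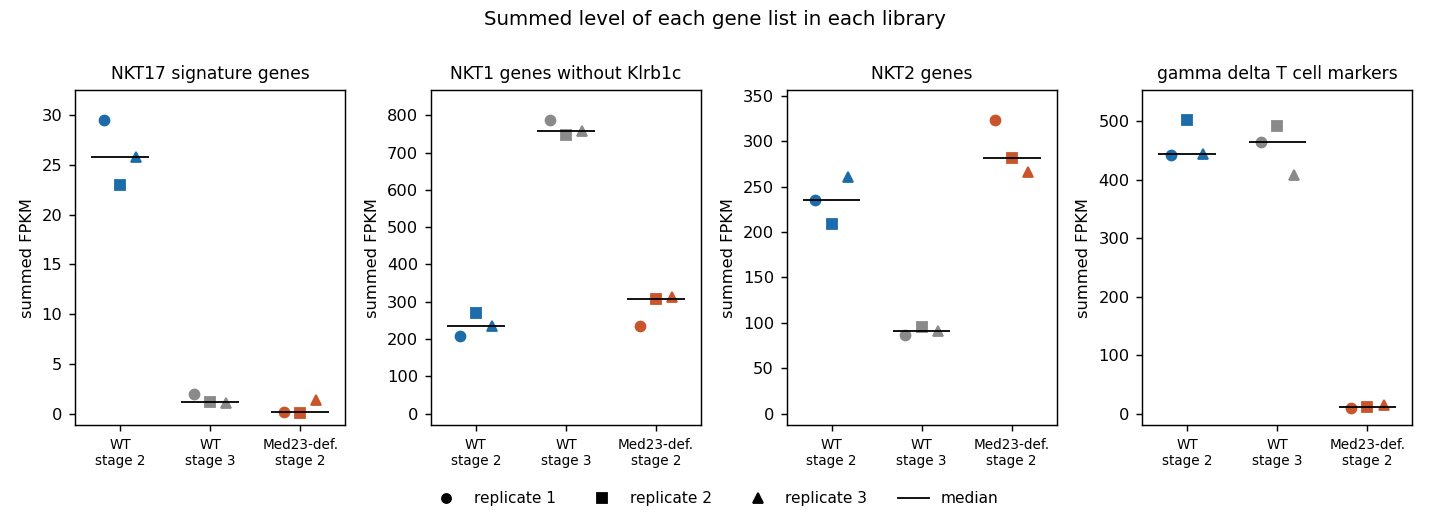
Summed FPKM (vertical axis) of the NKT17 signature genes, NKT1 genes without *Klrb1c*, NKT2 genes and gamma delta T cell markers in each library, by group, with marker shape for the replicate and a black line at the median. The members sum to between 23.01 and 29.56 FPKM in WT stage 2 and to at most 1.97 FPKM in any other library, whereas the gamma delta list is low in the *Med23*-deficient libraries alone.

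For WT stage 3 against WT stage 2, 20689 genes were tested and all 8 members passed the filter. *Ccr6*, *Sdc1* and *Il17re* passed it through WT stage 2 values alone, which fixes their direction. The counts set beside all genes are therefore over the other 5 members. By the fold and p thresholds 4 of these 5 were lower in stage 3, beside 1.90% of all genes tested that were lower and 1.70% that were higher. The groups did not overlap for 5 of 5, all lower in stage 3, beside 10.4% of all genes without overlap and lower and 7.36% without overlap and higher. By the adjusted p 2 of 5 were lower (*Il1r1* and *Blk*), beside 0.914% of genes lower and 0.759% higher. The median log2 difference was -2.02 over the 5 members and -0.014 over all genes tested.

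With 1 library left out, 4 of the 5 members passed the fold and p thresholds each time, but the count by the adjusted p mostly fell. It stayed at 2 without WT stage 2 replicate 1, was 1 without WT stage 2 replicate 2 and dropped to 0 without WT stage 2 replicate 3. It was 0 as well when WT stage 3 replicate 1, 2 (the library with *Xist*) or 3 was left out. The log2 differences then stayed between -2.51 and -2.76 for *Blk* and between -1.97 and -2.42 for *Il1r1*, and limma gave 5 of 5 at an unadjusted p of at most 0.05. Over all genes tested, between 22 and 137 passed the adjusted p with 1 library left out, in place of 346.

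For *Med23*-deficient stage 2 against WT stage 2, 20674 genes were tested and all 8 members passed the filter. *Il23r*, *Ccr6* and *Blk* passed it through WT stage 2 alone. Over the other 5 members, 4 were lower in the deficient libraries by the fold and p thresholds, beside 1.32% of all genes that were lower and 0.798% that were higher. The groups did not overlap for 5 of 5, all lower, beside 8.37% of all genes without overlap and lower and 5.63% without overlap and higher. By the adjusted p 1 of 5 was lower (*Sdc1*), beside 0.145% lower and 0.0677% higher. *Sdc1*, *Il17re*, *Tmem176a* and *Tmem176b* count among the 5 through 1 deficient library each, at 0.03 FPKM for *Sdc1*. Their direction was close to fixed as well, which limits what the counts over the 5 members show. The median log2 difference was -1.77 over the 5 members and -0.014 over all genes.

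In the deficient comparison the count over the 5 members by the adjusted p was 0 without any 1 of WT stage 2 replicate 1, 2 or 3 and without any 1 of *Med23*-deficient stage 2 replicate 1, 2 or 3. The log2 difference of *Sdc1* then stayed between -2.60 and -2.77, and limma gave 5 of 5 at an unadjusted p of at most 0.05. Over all genes the count was then between 1 and 8, in place of 44. By the fold and p thresholds 3 of the 5 passed without WT stage 2 replicate 1, through *Il17re*, and 4 without any 1 of the others. Without the deficient replicate 3, *Sdc1*, *Tmem176a* and *Tmem176b* were themselves at 0 throughout that group, as was *Il17re* without replicate 1. This comparison shares the WT stage 2 libraries with the comparison of the stages, so a high or low value in them enters both.

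*Med23*-deficient stage 2 was also set against WT stage 3, in which genotype and stage cannot be told apart. Of 20846 genes tested, 7 were members, as *Ccr6* was at 0 in all 6 libraries. *Il23r*, *Sdc1*, *Il17re* and *Blk* were at 0 throughout 1 of the groups, which leaves 3 members of open direction. By limma 0 of these 3 passed the fold and p thresholds, beside 1.48% of all genes lower and 1.39% higher, and 0 of 3 the adjusted p, beside 1.33% in either direction. The median log2 difference was 0.0061 over the 3 members and 0.0035 over all genes. The members were low in both groups, and the p-values do not show that the groups were equal.

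Transcription factors tied to type 17 programs were measured as well. *Rora*, which encodes a nuclear receptor, was at 7.54, 11.43 and 8.27 FPKM in WT stage 2, with 2.55, 0.41 and 2.45 FPKM in WT stage 3, but at 8.99, 9.51 and 7.82 FPKM in the deficient libraries. The deficient values of *Rora* thus lay within the range of WT stage 2. Those of the 5 members not at 0 throughout either group lay below it, as for 8.37% of all genes tested. *Irf4* was at 7.04, 6.29 and 10.35 FPKM in WT stage 2, at 0.08, 1.01 and 0.52 FPKM in WT stage 3, with 6.68, 3.25 and 3.69 FPKM in the deficient libraries. *Sox13* was at 4.05, 5.07 and 1.95, at 1.31, 0.98 and 0, and at 4.32, 2.69 and 2.10 FPKM in the same groups. All 3 genes had deficient values above every WT stage 3 value.

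Of the 10 type 17 transcription factors reported here (*Rora*, *Maf*, *Ahr*, *Batf*, *Irf4*, *Stat3*, *Sox13*, *Hif1a*, *Nfkbiz* and *Runx1*), 3 passed the fold and p thresholds in WT stage 3 against WT stage 2, all lower: *Rora* (log2 difference -1.94), *Irf4* (-2.55) and *Sox13* (-1.44). Of all genes tested 1.90% were lower by these thresholds. Without overlap 5 of the 10 were lower and 1 higher, beside 10.4% and 7.36% of all genes tested. The higher one was *Ahr*, short of the fold threshold at 0.88 (limma adjusted p = 0.237). None of the 10 passed them in the deficient comparison, where *Rora* had a log2 difference of -0.03 (limma adjusted p = 0.964) and *Irf4* of -0.71 (limma adjusted p = 0.535). Against WT stage 3, 3 factors were higher in the deficient libraries by these thresholds: *Rora* (limma adjusted p = 0.116), *Irf4* (limma adjusted p = 0.102) and *Sox13* (limma adjusted p = 0.341). Of all genes tested 1.39% were. Without overlap 5 of the 10 were higher there and 1 lower, *Ahr*, short of the fold threshold at -0.85 (limma adjusted p = 0.354). In the Ballgown-style model *Rora* (-1.95) and *Sox13* (-1.72) missed the p threshold in the stage comparison, and so did *Sox13* against WT stage 3 (1.23). *Sox13* also missed it in the stage comparison without WT stage 2 replicate 1 (log2 difference -1.35) or WT stage 2 replicate 2 (-1.22). In the last comparison it fell short of the fold threshold with 0.88 without WT stage 3 replicate 3, of the p threshold with 1.03 without *Med23*-deficient stage 2 replicate 1, and of the fold threshold on the TPM scale. Whether the members and these factors differ in their response was not tested. The medians of the 10 factors were -0.36, -0.068 and 0.34 in the comparisons in the order given.

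Among 10 other genes known from NKT17 cells (*Aqp3*, *Serpinb1a*, *Nrp1*, *Emb*, *Il7r*, *Igf1r*, *Cd163l1*, *5830411N06Rik*, *Ltb4r1* and *Cxcr6*), *Cd163l1* was at 4.61, 6.17 and 8.26 FPKM in WT stage 2, at 0.81, 0.99 and 0.60 FPKM in WT stage 3, with 0, 0.02 and 0 FPKM in the deficient libraries. *Serpinb1a* was at 2.83, 4.23 and 5.36 FPKM, at 0, 1.47 and 0 FPKM, and at 0, 0 and 0.17 FPKM in the same groups. *Emb* and *Nrp1* behaved otherwise. *Emb* had 17.15, 11.27 and 20.23 FPKM in WT stage 2, 0, 0.22 and 0 FPKM in WT stage 3 and 8.10, 10.24 and 12.55 FPKM in the deficient libraries. *Nrp1* had 11.56, 10.20 and 10.36 FPKM, 3.71, 2.69 and 2.60 FPKM, and 14.99, 13.25 and 9.88 FPKM in these groups. For *Emb* and *Nrp1* the deficient libraries overlapped with WT stage 2. They did not for the 5 members not at 0 throughout either group, which were lower, as were 8.37% of all genes tested.

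By the fold and p thresholds 7 of these 10 genes were lower in WT stage 3, among them *Emb* (log2 difference -3.97, limma adjusted p = 0.00651), *Nrp1* (-1.56, limma adjusted p = 0.019) and *Igf1r* (limma adjusted p = 0.0558). In the deficient libraries 4 of 10 were lower: *Cd163l1* (-2.84, limma adjusted p = 0.0323), *Serpinb1a* (-2.26, limma adjusted p = 0.0585), *Aqp3* (-1.66, limma adjusted p = 0.0858) and *5830411N06Rik*, which was listed at 0 there, so that its direction was fixed. Against WT stage 3, *Emb* (3.38) and *Nrp1* (1.77) were higher in the deficient libraries. *5830411N06Rik*, at 0 throughout the deficient libraries, was lower there at -1.47, with its direction fixed. *Cd163l1* was lower there without overlap, short of the fold threshold at -0.83 (limma adjusted p = 0.0312), whereas no member passed the adjusted p. *5830411N06Rik* lost its stage call without WT stage 2 replicate 1 (log2 difference -1.05), WT stage 2 replicate 3 (-0.72), WT stage 3 replicate 1 (-0.72) or WT stage 3 replicate 3 (-1.13), as it then missed the p threshold. It also lost it on the TPM scale (-0.96), with a common upper quartile (-0.94) and in the Ballgown-style model (-0.68). *Igf1r* lost its own without WT stage 2 replicate 2 (-0.98) and on the TPM scale (-0.93). In the Ballgown-style model *Aqp3* fell short of the fold threshold in the stage comparison (-0.67), and *Serpinb1a* of the p threshold (-1.22). The medians of the list were -1.15, -0.67 and -0.16 in the comparisons in the order given.

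**Figure D3:**
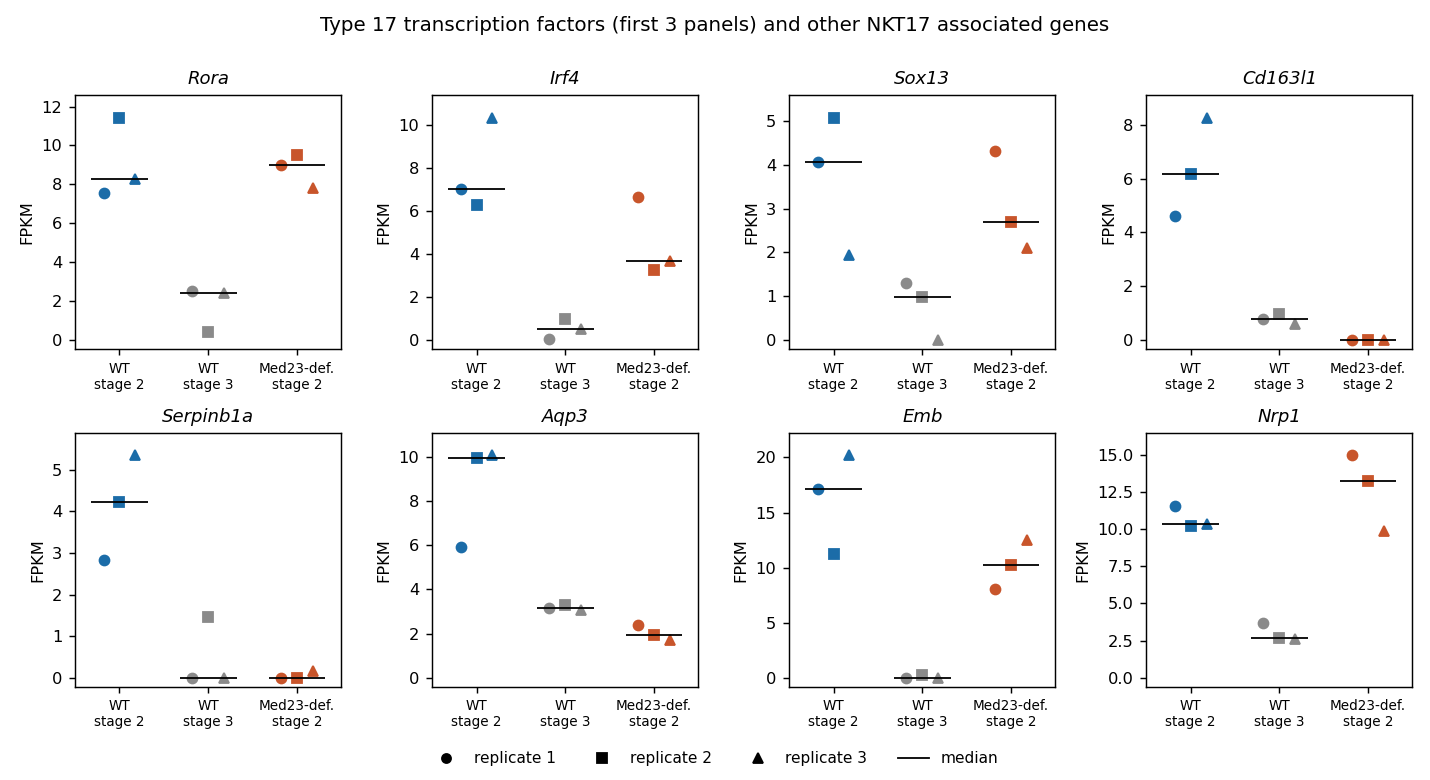
FPKM (vertical axis) of type 17 transcription factors and other NKT17 associated genes in each library, by group, with marker shape for the replicate and a black line at the median. *Cd163l1* and *Serpinb1a* are near 0 in the *Med23*-deficient libraries, as the members are, while *Rora* lies between 7.82 and 9.51 FPKM there and *Nrp1* between 9.88 and 14.99 FPKM.

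The partners of the member receptors were measured as well. *Il12rb1* encodes the chain that pairs with the product of *Il23r*, *Il1rap* the chain that pairs with that of *Il1r1*, and *Il17ra* the chain that pairs with that of *Il17re*. *Il12rb1* was at 12.07, 7.91 and 14.42 FPKM in WT stage 2, at 9.34, 5.90 and 6.22 FPKM in WT stage 3, with 8.23, 8.26 and 7.32 FPKM in the deficient libraries. *Il17ra* was at 7.63, 9.10 and 11.14 FPKM, at 9.96, 11.22 and 10.78 FPKM, and at 5.62, 6.65 and 7.47 FPKM in these groups. Both partner chains were thus present in every library, also where *Il23r* and *Il17re* were listed at 0. *Il17ra* was lower without overlap in the deficient libraries, short of the fold threshold. Its log2 difference was -0.43 against WT stage 2 (limma adjusted p = 0.54) and -0.63 against WT stage 3 (limma adjusted p = 0.14). Over the 9 genes of the list below, 1 was higher without overlap in each of these comparisons. *Il1rap* ranged from 0.27 to 1.37 FPKM over the 9 libraries, with the 3 groups overlapping.

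Over the 9 genes of receptor partners and signalling (with *Jak2*, *Tyk2*, *Myd88*, *Irak4*, *Traf6* and *Traf3ip2*), the log2 differences lay between -0.60 and 0.28 in WT stage 3 against WT stage 2, between -0.45 and 0.32 in the deficient comparison and between -0.63 and 0.36 against WT stage 3. Their medians were -0.046, -0.040 and -0.0046, beside -2.02, -1.77 and 0.0061 for the members not at 0 throughout either group. Of the ligands and decoys, *Il1r2*, a decoy receptor for interleukin 1, was at 0.01 FPKM or below and *Il17c*, the ligand of the *Il17re* product, at 0.08 FPKM or below. *Il23a*, *Il12b*, *Il1a*, *Il1b*, *Il1rn* and *Ccl20* were not analysed here. Of the type 17 cytokines, *Il17a*, *Il17f* and *Il22* were not analysed here. *Il21* was at 0.42, 0.92 and 0.37 FPKM in WT stage 2 and was listed at 0 in all other libraries, and *Csf2* had at most 2.56 FPKM, in WT stage 3 replicate 1.

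The members were set beside genes of the other iNKT subsets, which the gates do not fully separate. The 7 NKT1 genes other than the gate gene *Klrb1c* summed to 208.77, 271.05 and 235.75 FPKM in WT stage 2, to 788.76, 748.40 and 758.22 FPKM in WT stage 3 and to 233.88, 307.27 and 313.08 FPKM in the deficient libraries. The 6 NKT2 genes summed to 235.57, 209.20 and 260.49, to 86.45, 95.67 and 91.00, and to 323.85, 281.76 and 265.70 FPKM in these groups. The NKT2 sum was higher in each deficient library than in any WT stage 2 library, whereas the sum of the members was lower in each deficient library. In WT stage 3, 6 of these 7 NKT1 genes (*Tbx21*, *Ifng*, *Il2rb*, *Xcl1*, *Klrd1* and *Nkg7*) were higher by the fold and p thresholds and 4 of 6 NKT2 genes (*Il4*, *Il13*, *Il17rb* and *Zbtb16*) lower, like the members. In the Ballgown-style model *Tbx21* (0.76) and *Il4* (-1.6) did not pass. In the deficient comparison the log2 differences of the NKT2 genes lay between -0.37 (*Zbtb16*) and 0.85 (*Il17rb*), none past the fold threshold, while 1 of the 7 NKT1 genes was lower, *Klrd1* (-2.08, limma adjusted p = 0.204), which missed the p threshold in the Ballgown-style model (-1.95). The median log2 difference there was 0.48 for the NKT2 genes, 0.38 for the 7 NKT1 genes and -1.77 for the 5 members not at 0 throughout either group.

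*Zbtb16*, which encodes PLZF, was at 112.43, 87.96 and 102.71 FPKM in WT stage 2, with 90.85, 75.25 and 68.08 FPKM in the deficient libraries, which overlapped. *Gata3* was at 35.81, 38.10 and 42.47 FPKM in WT stage 2, with 77.18, 69.69 and 60.69 FPKM in the deficient libraries, a log2 difference of 0.82 (limma adjusted p = 0.0786). The members were thus low in libraries whose level of *Gata3* was higher. They were also low in WT stage 3, where *Gata3* was at 35.33, 31.15 and 33.93 FPKM, below WT stage 2. A link between the members and *Gata3* was not tested. *Tbx21*, which encodes T-bet, had a log2 difference of 0.43 in the deficient libraries (limma adjusted p = 0.622), and *Zbtb7b*, which encodes ThPOK, one of 0.48 (limma adjusted p = 0.558). Against WT stage 3, 5 of 6 NKT2 genes were higher in the deficient libraries and 5 of the 7 NKT1 genes lower. *Gata3* was among the former with 1.02, and fell short with 0.97 without WT stage 3 replicate 2, with 0.94 without *Med23*-deficient stage 2 replicate 1 and with 0.98 on the TPM scale.

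Several members are also known from other cell types, so marker lists of these were summed in each library. *Sdc1* is a plasma cell marker and *Blk* a B cell gene. Of 7 B cell markers, 4 were analysed, with a sum of 0, 0.50 and 0 FPKM in WT stage 2, of 0.54, 1.0 and 0.52 FPKM in WT stage 3 and of 0, 0 and 0.05 FPKM in the deficient libraries. *Cd22* was the most abundant of them, *Cd79a* was at 0 throughout WT stage 2, and *Ms4a1* and *Pax5* were not analysed here. The part of B cells in the level of *Blk* was not tested. Of 5 plasma cell markers *Xbp1* and *Prdm1* were analysed, both of which T cells also express. They summed to 7.64, 6.08 and 10.51 FPKM in WT stage 2, to 13.95, 9.84 and 10.93 FPKM in WT stage 3 and to 8.75, 14.46 and 9.79 FPKM in the deficient libraries, and the part of plasma cells in the level of *Sdc1* was not tested. *Jchain* and *Mzb1* were not analysed here.

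*Cd163l1*, *5830411N06Rik* and *Sox13* are also markers of gamma delta T cells, some of which share the type 17 program and members with NKT17 cells. The 11 of 13 gamma delta markers that were analysed summed to 442.86, 503.30 and 444.66 FPKM in WT stage 2, to 464.15, 491.59 and 408.03 FPKM in WT stage 3 and to 10.11, 11.78 and 15.44 FPKM in the deficient libraries. *Tcrg-C2* was the most abundant, and *Trdc*, the constant gene of the delta chain that defines these cells, was at 0.38 FPKM or below in all libraries. In WT stage 3 this sum was as high as in WT stage 2 while the members were near 0, and in the deficient libraries both were low. By the fold and p thresholds 7 of 11 were lower in the deficient libraries (*Tcrg-C1*, *Tcrg-C2*, *Tcrg-C4*, *Tcrg-V4*, *Trgv2*, *Cd163l1* and *5830411N06Rik*, the last at 0 throughout) and 3 of 11 in WT stage 3, the latter being the 3 genes named first. Of these, *Sox13* and *5830411N06Rik* lost the call without WT stage 2 replicate 1 (log2 differences -1.35 and -1.05) and in further fits without 1 library given above. The part of the gamma receptor genes in the result on the members was not tested. The study identifies iNKT cells with a CD1d tetramer and an antibody to the T cell receptor beta chain.

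Of 13 myeloid and dendritic cell markers, 10 were analysed, and summed to 19.00, 27.27 and 13.58 FPKM in WT stage 2, to 13.17, 11.91 and 13.23 FPKM in WT stage 3 and to 10.57, 14.66 and 15.57 FPKM in the deficient libraries. *Cst3* was the most abundant, with 12.63, 20.18 and 10.93 FPKM in WT stage 2, 13.07, 7.46 and 9.98 FPKM in WT stage 3 and 9.88, 10.54 and 7.69 FPKM in the deficient libraries. There *Cst3* was lower than in WT stage 2 without overlap, short of the fold threshold at -0.55 (limma adjusted p = 0.551). The 5 members not at 0 throughout either group were also lower without overlap, as were 8.37% of all genes tested. *Csf1r* was at 0.12 FPKM or below and *Flt3* at 0.04 FPKM or below in all libraries. *Cd74*, at 5.56, 5.56 and 1.49 FPKM in WT stage 2, was the 1 of 10 that passed the fold and p thresholds in WT stage 3, where it was lower (limma adjusted p = 0.267). It missed the p threshold without WT stage 2 replicate 1 (log2 difference -1.32), WT stage 2 replicate 2 (-1.32) or WT stage 3 replicate 1 (-1.21), as well as with a block for the replicate number (-1.55) and in the Ballgown-style model (-2.20). The part of *Cst3* and *Cd74* in the result on the members, of which *Il1r1* and the *Tmem176* genes are also known from myeloid cells, was not tested.

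Double-positive thymocytes were judged by 8 markers, which summed to 55.10, 52.59 and 55.94 FPKM in WT stage 2, to 20.28, 30.47 and 23.18 FPKM in WT stage 3 and to 63.52, 46.78 and 40.22 FPKM in the deficient libraries. Most of the sum was *Cd4*, which iNKT cells express too, and *Rag1* was at 1.58 FPKM or below and *Ptcra* at 0.08 FPKM or below. *Cd8b1* reached 3.05 FPKM and *Cd8a* 1.64 FPKM, in WT stage 2 replicates 2 and 3, and *Dntt* 1.83 FPKM in WT stage 3 replicate 2. The part of double-positive thymocytes in the level of the members was not tested. *Cd4* was the 1 of 8 past the fold and p thresholds in WT stage 3, at a log2 difference of -1.26 (limma adjusted p = 0.0237). It was higher in the deficient libraries than in WT stage 3 at 1.13 (limma adjusted p = 0.102), and fell short of the fold threshold with 0.95 without *Med23*-deficient stage 2 replicate 1. Of 7 thymic epithelial markers 3 were analysed, with *Epcam* at 0.79 FPKM or below as the most abundant, and of 6 erythroid markers *Hbb-bs* alone, at 0.75 FPKM or below.

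The members were compared with their surroundings in the genome. *Il23r*, *Il17re*, *Tmem176a* and *Tmem176b* lie on chromosome 6, which holds 5.61% of the genes of the table, and the rest on chromosomes 1, 12, 14 and 17. The nearest genes on each side with a mean of at least 1 FPKM made up 14 genes other than members. *Il12rb2*, which lies 46743 bases from *Il23r* and encodes the signalling chain of the interleukin 12 receptor, was at 10.27, 10.50 and 12.43 FPKM in WT stage 2, at 50.32, 44.96 and 51.61 FPKM in WT stage 3, with 13.96, 17.38 and 25.90 FPKM in the deficient libraries. It was therefore high in WT stage 3, where *Il23r* was low, with a log2 difference of 2.05 (limma adjusted p = 0.00368). *Gimap3*, 62966 bases from *Tmem176b*, was at 71.17, 62.65 and 84.63 FPKM in WT stage 2, at 159.84, 127.08 and 161.65 FPKM in WT stage 3, with 101.31, 115.79 and 153.44 FPKM in the deficient libraries.

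By the fold and p thresholds these were the 2 of 14 neighbours that passed in WT stage 3 against WT stage 2, both higher. *Map4k4*, next to *Il1r1*, was lower in WT stage 3 but short of the fold threshold, at a log2 difference of -0.77 (limma adjusted p = 0.0419). *Gimap3* was close to the fold threshold with a log2 difference of 1.03 (limma adjusted p = 0.0412). It fell short with 0.93 when WT stage 2 replicate 2 was left out, with 0.98 when WT stage 3 replicate 1 was, with 0.97 when WT stage 3 replicate 3 was, and with 0.93 on the TPM scale. In the deficient comparison the neighbours had log2 differences between -0.42 (*Mpc1*) and 0.74 (*Gimap3*), short of the fold threshold. Against WT stage 3, *Il12rb2* was the 1 of 14 that passed the fold and p thresholds, lower by a log2 difference of -1.36 (limma adjusted p = 0.0557). *Map4k4* was the 1 of 14 that passed the adjusted p there, higher without overlap in the deficient libraries at 0.82 (limma adjusted p = 0.00844).

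**Figure D4:**
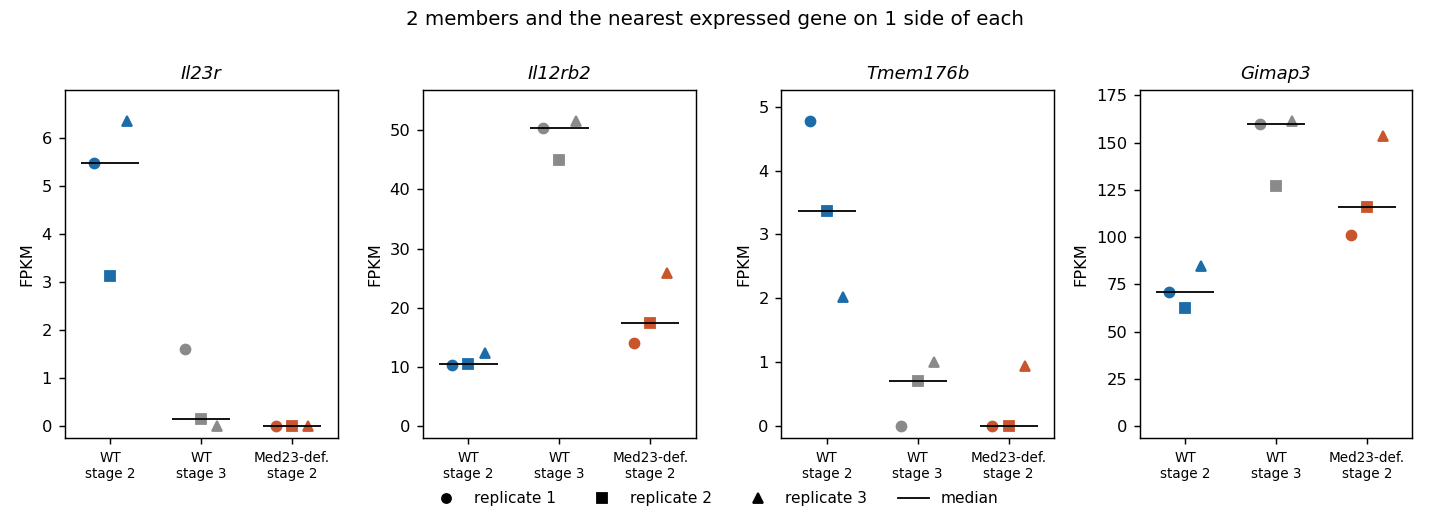
FPKM (vertical axis) of *Il23r* and *Tmem176b* and of an expressed neighbour of each, *Il12rb2* and *Gimap3*, in each library, by group, with marker shape for the replicate and a black line at the median. *Il12rb2* lies between 44.96 and 51.61 FPKM in WT stage 3, where *Il23r* is at 1.60 FPKM or below.

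To name the genes most like the members, log2(FPKM + 1) of each of 9656 genes with a mean of at least 1 FPKM was correlated over the 9 libraries with the mean z score of the members. The libraries form 3 groups, with WT stage 2 as the high one for the members, so Pearson's r is given as a description only. Among the 10 genes with the highest r were *Cpsf3l* (0.982), *Nup205* (0.976), *Pcsk1* (0.974), *mt-Tw* (0.962), *Tkt* (0.955), *Ago1* (0.955), *Tgm3* (0.951), *Fam129a* (0.950) and *Ncapd2* (0.948). With a pseudocount of 0.1, 7 of the 10 were again among the first 10. *Pcsk1*, at 6.36, 6.98 and 3.94 FPKM in WT stage 2, was listed at 0 in all other libraries, as was *Tgm3*, at 5.55, 1.26 and 5.36 FPKM. Both were thus above 0 in WT stage 2 alone, whereas *Cpsf3l* differed less, with 13.58 to 15.67 FPKM in WT stage 2 and 9.03 to 10.14 FPKM in the rest. *Cd163l1* ranked 52 (0.913) and *Serpinb1a* 112 (0.872), while *Emb* ranked 1470 (0.574), *Rora* 2600 (0.407) and *Il12rb2* 9241 (-0.685).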

How the data were processed

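RNA of 9 libraries of sorted mouse thymic iNKT cells (WT at stages 2 and 3, and *Med23*-deficient at stage 2, 3 each) was made into stranded total RNA libraries. By the methods of the study and the submitters' notes, reads were trimmed with Trimmomatic 0.36, aligned to mm10 with HISAT2 and quantified on GENCODE vM12 with StringTie. The values are FPKM as the authors deposited them, 1 table of 21883 genes with 2 decimals and replicates kept apart. No counts are given, and low values do not step by whole reads, so depth is unknown and intervals for counting error cannot be had.

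limma 3.58.1 under R 4.3.3 was run on log2(FPKM + 1), with lmFit and with eBayes set to a trend, in 3 pairwise comparisons, each over the genes above 0 in at least 1 of the 6 libraries. Calls used a fold change of at least 2 with p of at most 0.05, or p of at most 0.05 after Benjamini-Hochberg adjustment over the whole fit. Permuting 3 libraries against 3 cannot reach the p threshold, so limma, which pools the spread over genes, was used. The code was tested on simulated data. Descriptions and plots used Python 3.11.15, numpy 2.4.6, pandas 2.3.3 and matplotlib 3.10.9. Upstream windows came from RefSeq (GRCm38.p6).

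Genes named are the members, *Il17a*, *Il17f*, *Il22*, *Zbtb16*, *Zbtb7b*, *Tbx21* and *Gata3*, genes of the lists past the fold and p thresholds in a comparison, the expressed neighbours of members, the leading and defining genes of the marker lists, and the 10 genes most like the members, leaving out names that are Gm and a number or end in Rik for the last. Outside this rule, values are given for *Ahr*, *Dntt*, *Il12rb1*, *Il1rap*, *Il17ra*, *Il1r2*, *Il17c*, *Il21* and *Csf2*, for genes that check the labels and libraries (such as *Med23*, *Trav11*, *Raver1*, *Xist* and the Y-linked genes) and for genes set against the members in the text. A gene planned in each of 2 lists, and 1 of the 10 genes most like the members, are not reported here, and the counts and medians of those lists are without them. Members and lists were chosen with earlier results of these data known.

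The alternatives were a pseudocount of 0.1, a filter at a mean of 1 FPKM, values rescaled to TPM, a common upper quartile, limma without a trend, an ordinary linear model of each gene with library size as covariate (Ballgown-style), all 9 libraries in 1 fit, the replicate number as a block, and each library left out in turn.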

Additional observations from a re-analysis of the deposited data

How the results depend on the processing

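Calls are counted over the 5 members not at 0 throughout either group. The others (*Ccr6*, *Sdc1* and *Il17re* in WT stage 3, *Il23r*, *Ccr6* and *Blk* in the deficient libraries) cannot change direction under any alternative, so their stability shows nothing. All 5 stayed lower than in WT stage 2 in both comparisons wherever they were tested. In the deficient comparison this was fixed for *Sdc1*, *Tmem176a* and *Tmem176b* without the deficient replicate 3. It was likewise fixed for *Il17re* without the deficient replicate 1. By the fold and p thresholds 4 of 5 passed in each, 5 of 5 with a pseudocount of 0.1 in each, and in the deficient comparison 3 of 5 on the TPM scale, without WT stage 2 replicate 1 and in the Ballgown-style model. The filter at a mean of 1 FPKM left 4 and 3 of the 5 through their WT stage 2 values, so counts under it support nothing. Over these members, the alternatives and the 2 comparisons with WT stage 2, 130 fitted values kept their direction and their side of the fold and p thresholds, 4 lost the call and 3 gained it. For the other genes named 567 kept both there, 29 lost the call and 5 reversed, and against WT stage 3 341 kept both and 8 lost the call. The tally of the members includes the fits under the filter and those in which leaving out a library fixed the direction, which support nothing.

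The count by the adjusted p was less stable. For WT stage 3 against WT stage 2 it was 2, and it was 1 on the TPM scale, 0 with the Ballgown-style model, 4 with all 9 libraries in 1 fit, 0 with a block for the replicate number, and between 0 and 2 with 1 library left out. For *Med23*-deficient against WT stage 2 it was 1, and it was 0 with the Ballgown-style model, 3 with all 9 libraries, 0 with the block, and 0 with any 1 library left out. Over all 8, those of fixed direction included, it was 3 and 2, and 6 and 5 with all 9 libraries. The fits with 1 library left out hold fewer libraries, and the cause of these changes was not tested. With the block, limma gave 5 members at an unadjusted p of at most 0.05 in each, and the Ballgown-style model 4 and 3. In *Med23*-deficient stage 2 against WT stage 3 no member passed either rule under any alternative, and none was left to test under the filter at a mean of 1 FPKM. Directions did change there: of the 3 members not at 0 throughout either group 1 was lower in the main fit, and between 1 and 3 in the alternatives that had members to test.

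Replicate numbers were not taken to pair the libraries. After removal of the group means, correlations between libraries of the same number lay between 0.004 and 0.085 for replicates 1 and 2. For replicate 3 they were higher, at 0.161, 0.144 and 0.272. The block is given as an alternative only, and under it no member passed the adjusted p.

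*Zbtb7b* in WT stage 3 against WT stage 2 (-0.017) was reversed to 0.067 with a common upper quartile and to 0.52 with the Ballgown-style model, and ranged from -0.25 to 0.16 with 1 library left out (0.04 without WT stage 2 replicate 2, 0.16 without WT stage 2 replicate 3, 0.023 without WT stage 3 replicate 2). The cause was not tested. On the TPM scale the median log2 difference of genes averaging 1 FPKM or more moved to -0.13 for WT stage 3 and -0.15 for the deficient libraries, against -0.05 for both in FPKM, far less than the members' medians.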
